A study of Homo sapiens with 32 samples.

Results

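The clusters of Krüppel-associated box (KRAB) zinc finger genes on human chromosome 19 were examined in maps of N6-methyladenosine (m6A), a methyl mark on adenosines of RNA, from PANC-1, an established pancreatic ductal adenocarcinoma cell line. Members were the m6A peaks that start in 8 stretches of chromosome 19 (build hg19), from 9.2 to 9.9, 11.7 to 12.6, 19.8 to 24.3, 34.9 to 35.5, 36.6 to 38.4, 44.3 to 45.0, 52.3 to 53.9 and 56.5 to 59.1 Mb. They numbered 5922 of 424904 peaks (1.39%), and the other 21267 peaks of chromosome 19 served for comparison. The groups were CFL1 knockout PANC-1 cells, METTL3 knockout PANC-1 cells and control PANC-1 cells, all from total RNA, with 2 antibody libraries each. CFL1 is cofilin 1, which severs actin filaments, and METTL3 is the catalytic subunit of the main m6A methyltransferase of messenger RNA. The sources used here do not state whether the knockouts are single clones or what the control cells received. Absence of the CFL1 or METTL3 protein cannot be read from lists of peaks and was not checked. Libraries are called by the numbers in the names of their peaks, 3 and 5 for each knockout and 1 and 2 for control. These names contain "si" for both knockouts, a term the labels do not explain, and the cells are called knockouts here after the labels. The labels name no separate cultures for the libraries, so the spread within a group, and every p-value built on it, may be technical.

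KRAB zinc finger proteins bind DNA through arrays of zinc fingers. Through the KRAB domain they recruit the corepressor TRIM28 (KAP1), which brings in the histone methyltransferase SETDB1, and many of them silence transposable elements. Their genes arose by repeated duplication and stand side by side in clusters. Among them are ZNF91, which represses SVA elements, and ZNF93, which represses a family of LINE-1 elements. In RefSeq's gene order for another assembly, GRCh38.p14, 262 of the 1442 protein-coding genes of chromosome 19 had zinc finger symbols, 47.1% of the 556 in the genome. Of these, 214 stood in 18 uninterrupted runs of at least 5 genes, and the longest run was of 27 genes, ZNF737 to ZNF681. No annotation of the build of the peaks was used, so no peak is assigned to a gene here. The stretches also hold other genes, and further zinc finger genes lie elsewhere on the chromosome. Related genes have similar sequences, so reads can be shared between copies, and the sources used here do not state how such reads were treated.

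Zinc finger clusters made up a smaller share of the chromosome's peaks in CFL1 knockout libraries than in control libraries, while METTL3 knockout libraries overlapped control. The clusters held 930 and 855 peaks in CFL1 knockout 3 and 5, 932 and 863 in METTL3 knockout 3 and 5, and 1163 and 1179 in control 1 and 2. Every knockout library thus lay below both control libraries. The same held over all chromosomes, with 72728 and 66295 peaks in CFL1 knockout and 63859 and 64952 in METTL3 knockout. Control had 77603 and 79467. Outside the clusters chromosome 19 held 4271 and 3543 peaks in CFL1 knockout, 2838 and 2948 in METTL3 knockout, and 3937 and 3730 in control. Of all peaks of a library, the clusters held 1.28% and 1.29% in CFL1 knockout and 1.46% and 1.33% in METTL3 knockout. In control they held 1.50% and 1.48%, so by this share METTL3 knockout also lay below control. The rest of chromosome 19 held 5.87% and 5.34%, 4.44% and 4.54%, and 5.07% and 4.69% in the same order. The share of chromosome 19 peaks that lay in the clusters was 17.9% and 19.4% in CFL1 knockout, 24.7% and 22.6% in METTL3 knockout, and 22.8% and 24.0% in control. By length the clusters were 24.0% of the chromosome, 13.4 of 13.4 plus 42.5 Mb, where the largest stretch without a peak was left out.

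The share differed from control by -4.75 percentage points in CFL1 knockout (18.7 ± 1.1% against 23.4 ± 0.858%, SD, n = 2 each; exact permutation of libraries, two-sided, p = 0.333). In METTL3 knockout it differed by 0.273 points (23.7 ± 1.47% against 23.4 ± 0.858%, SD, n = 2 each; exact permutation, two-sided, p = 1). With 2 against 2 libraries, 0.333 is the smallest p possible, so no such difference could pass a 5% threshold. In counts, the clusters averaged 892.5 ± 53.0 peaks in CFL1 knockout and 1171 ± 11.3 in control, a ratio of 0.762, while the ratio outside the clusters was 1.02. For METTL3 knockout the ratios were alike, 0.766 in the clusters (897.5 ± 48.8 peaks against 1171 ± 11.3 in control) and 0.755 outside. Read depth is unknown from peak lists, and its part in these counts was not tested.

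The lower number of cluster peaks in knockout libraries lay mainly among weak peaks. The authors' −log10 q gives the strength of evidence for a peak, with larger values for stronger peaks. At a −log10 q of at least 10, clusters held 523.5 ± 6.36 peaks in CFL1 knockout, 545 ± 33.9 in METTL3 knockout and 544.5 ± 3.54 in control libraries. At 20 or more they held 363.5 ± 30.4 in CFL1 knockout, 417 ± 15.6 in METTL3 knockout and 374.5 ± 10.6 in control. At 50 or more the means were 192.5 ± 44.5 in CFL1 knockout, 270 ± 35.4 in METTL3 knockout and 193 ± 9.90 in control. At 10 or more both CFL1 knockout libraries, with 528 and 519, lay below both control libraries, with 542 and 547. CFL1 knockout libraries overlapped control at 20 and at 50, whereas both METTL3 knockout libraries lay above both control libraries. For METTL3 knockout the pattern was not particular to the clusters. Its ratio to control was 0.766 for all peaks and 1.001 at 10 or more in the clusters, and 0.755 and 0.991 in the rest.

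Outside the clusters the strong peaks of CFL1 knockout were more numerous than in control. The CFL1 knockout to control ratio of peaks at 20 or more was 0.971 in the clusters and 1.45 in the rest of the chromosome, and at 50 or more it was 0.997 and 1.43. The METTL3 knockout to control ratio at 20 or more was 1.11 in the clusters and 1.09 in the rest, and at 50 or more it was 1.40 and 1.2. The clusters' share of chromosome 19 peaks at 20 or more was 18.8 ± 2.20% in CFL1 knockout, 26.2 ± 0.50% in METTL3 knockout and 25.7 ± 0.366% in control (SD, n = 2 each). These counts use 1 threshold for all libraries, although −log10 q can vary with read depth.

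**Figure D1:**
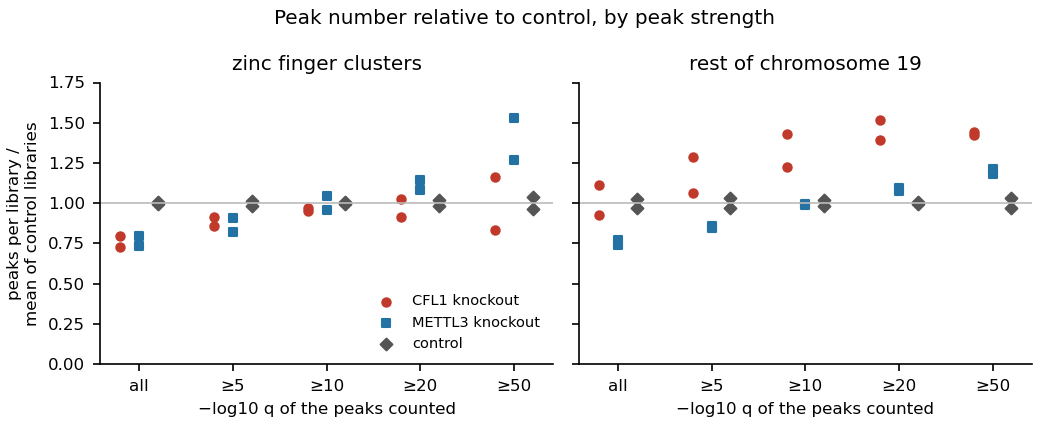
Peaks per library divided by the mean of the control libraries (vertical axis, ratio), counting all peaks or those at or above a −log10 q of 5, 10, 20 or 50 (horizontal axis), in the zinc finger clusters (left) and in the rest of chromosome 19 (right); each point is 1 library. In the clusters the mean ratio of CFL1 knockout goes up to 0.997 at 50 or more, while in the rest it is 1.43.

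The clusters differed from one another in density by more than the groups did. In control libraries the density was lowest in the longest cluster, at 19.8 to 24.3 Mb, with 40.7 and 43.1 peaks per Mb, and highest at 36.6 to 38.4 Mb, with 138 and 124 peaks per Mb, and at 11.7 to 12.6 Mb, with 121 and 133. ZNF91 and ZNF93 are genes of the cytogenetic band that holds the longest cluster. At 36.6 to 38.4 Mb there were 146 and 136 peaks in CFL1 knockout, 152 and 146 in METTL3 knockout, and 249 and 223 in control. All 4 knockout libraries lay well below both control libraries there, with ratios of 0.597 for CFL1 knockout and 0.631 for METTL3 knockout. The 11.7 to 12.6 Mb cluster was similar, with ratios of 0.638 and 0.620 in the same order.

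The cluster at 44.3 to 45.0 Mb went the other way in its mean. It held 66 and 75 peaks in CFL1 knockout, 84 and 73 in METTL3 knockout, and 59 and 74 in control, and the groups overlapped. At 52.3 to 53.9 Mb the counts were 178 and 159 in CFL1 knockout, 166 and 147 in METTL3 knockout, and 179 and 184 in control. At 56.5 to 59.1 Mb, where TRIM28 itself and the imprinted zinc finger gene PEG3 lie, they were 249 and 228 in CFL1 knockout, 226 and 219 in METTL3 knockout, and 305 and 297 in control. Both CFL1 knockout libraries lay below both control libraries in 7 of 8 clusters, beside 33.3% of the 42 windows of 1 Mb in the rest of chromosome 19 and 50.7% of 1247 such windows in the genome. For METTL3 knockout this held in 6 of 8 clusters, beside 66.7% and 57.9% of the same windows. In none of the 8 clusters did both libraries of a knockout lie above both control libraries, beside 42.9% of the chromosome 19 windows and 25.5% of all windows for CFL1 knockout, and 14.3% and 22% for METTL3 knockout. Windows entered with a mean of at least 20 peaks per library. The clusters, of 0.6 to 4.5 Mb, differ from these windows in length and number of peaks, so the shares are not like for like.

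**Figure D2:**
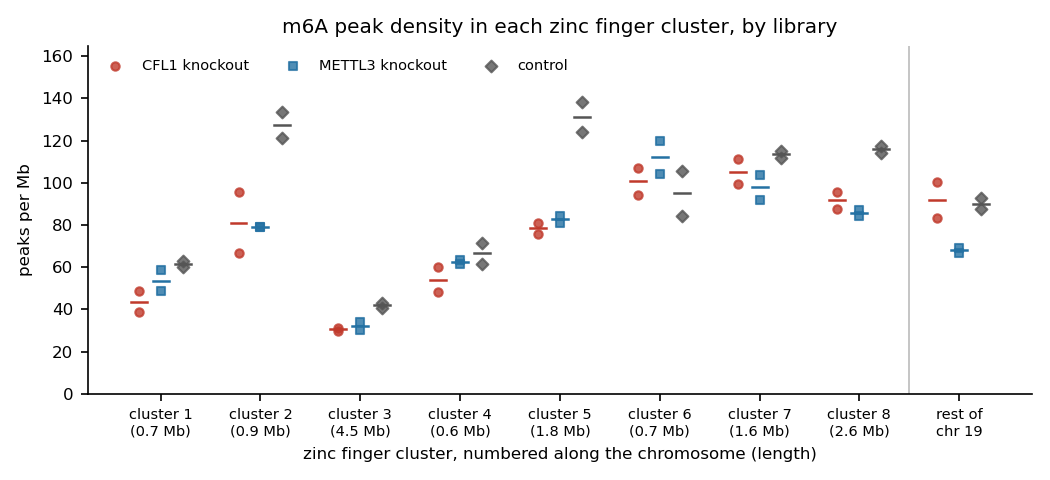
Peaks per Mb (vertical axis) in each of the 8 zinc finger clusters, numbered along the chromosome with their lengths in Mb, and in the rest of chromosome 19 (far right). Points are libraries and short bars are means of 2 libraries; cluster 5 (36.6 to 38.4 Mb) has 78.3 and 82.8 peaks per Mb on average in CFL1 and METTL3 knockout, against 131 in control.

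Within each library, peaks in the clusters were wider and had a higher fold enrichment than peaks in the rest of the chromosome. The authors' fold enrichment is the ratio of signal in a peak to the background of the call. The median width in the clusters was 395.5 and 450 bp in CFL1 knockout 3 and 5, 485.5 and 441 bp in METTL3 knockout 3 and 5, and 413 and 415 bp in control 1 and 2. In the rest it was 370 and 379 bp in CFL1 knockout, 373 and 349.5 bp in METTL3 knockout, and 355 and 369 bp in control. The clusters were higher in 6 of 6 libraries, by 67.4 ± 31.4 bp (SD, n = 6 libraries; exact sign-flip permutation, two-sided, p = 0.03125, the smallest possible, and 0.0781 after Benjamini-Hochberg adjustment over 5 tests). The difference in median fold enrichment was 1.3 ± 0.579, again above 0 in 6 of 6 libraries (SD, n = 6; same exact permutation, p = 0.03125, adjusted 0.0781). It ran from 0.616 in control 2 to 1.84 in METTL3 knockout 5. No test of this family of 5 passed 5% after adjustment, and libraries of a group are not fully independent.

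Broad peaks were more frequent in the clusters in each library. Peaks at least 1 kb wide made up 16.1% and 21.5% of cluster peaks in CFL1 knockout, 22.9% and 24.8% in METTL3 knockout, and 16.3% and 17.9% in control. In the rest the share was 11.7% and 12.3% in CFL1 knockout, 12.1% and 10.9% in METTL3 knockout, and 9.83% and 11.5% in control. Both METTL3 knockout libraries had a larger share of broad cluster peaks than both control libraries, whereas CFL1 knockout overlapped control.

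The other differences between clusters and rest were smaller than their spread or could not be resolved. The log2 ratio of peaks per Mb was -0.17 ± 0.23, below 0 in 4 of 6 libraries (exact sign-flip permutation, two-sided, p = 0.125, adjusted 0.156). It turned positive without the sparse 19.8 to 24.3 Mb cluster, at 0.17. The difference in median −log10 q was 1.18 ± 1.61, above 0 in 5 of 6 libraries (same exact permutation, p = 0.125, adjusted 0.156), and it was -0.0641 without the 56.5 to 59.1 Mb cluster. Peaks of a library were found in the other library of its group, by an overlap of at least 1 bp, more often in the clusters by 3.90 ± 2.39 percentage points (SD, 3 of 3 groups; exact sign-flip permutation, p = 0.25, the smallest possible). That mean hides opposite directions, since CFL1 knockout 5 and control 2 had differences of -2.95 and -0.692 points.

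**Figure D3:**
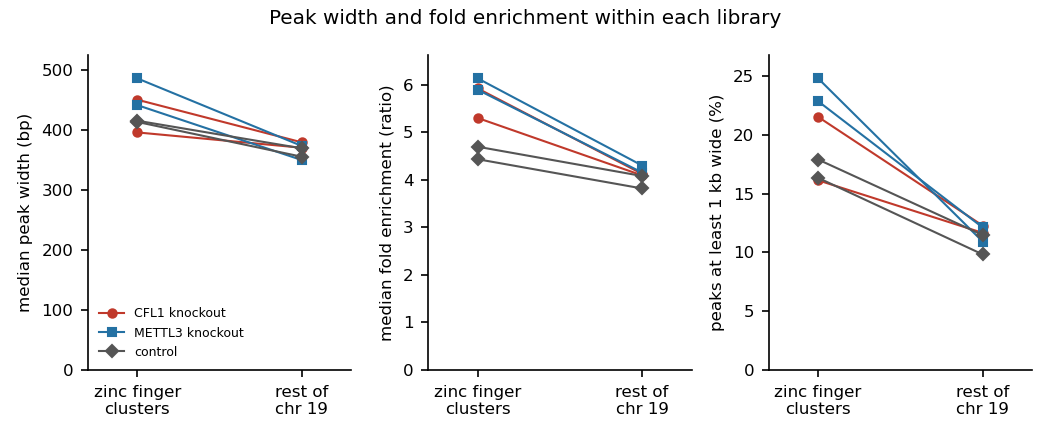
Median peak width (bp), median fold enrichment (ratio) and the percentage of peaks at least 1 kb wide (vertical axes) in the zinc finger clusters and in the rest of chromosome 19; each line joins the values of 1 library. All 6 lines fall towards the rest in each panel, and the mean differences are 67.4 bp in width and 1.3 in fold enrichment.

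The share of control peaks without a counterpart was near that elsewhere on the chromosome for CFL1 knockout and below it for METTL3 knockout, without a test, since peaks are not replicates. A peak lacked a counterpart if no peak of the other list overlapped it by 1 bp. Transcript abundance was not measured here, so these shares do not measure methylation alone. Of 2342 control peaks in the clusters, 1239 had no CFL1 knockout peak, 52.9% (exact 95% binomial interval 50.9 to 54.9%), beside 55.0% in the rest of chromosome 19 and 57.8% over all chromosomes. The difference from the rest was -2.12 points with all peaks, and it reversed to 0.859 points without the 52.3 to 53.9 Mb cluster. It was -0.560 points after standardisation to equal-size bins of −log10 q and -3.99 points without CFL1 knockout 3. For METTL3 knockout 1204 had no peak, 51.4% (49.4 to 53.5%), beside 59.2% in the rest and 57.7% over all chromosomes. By library it was 52.5% and 50.4% in the clusters for control 1 and 2, against 60.2% and 58.1% in the rest. Intervals cover counting error only, and neighbouring peaks are not independent.

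The same control peaks were largely missing from both knockouts. In the clusters 1137 control peaks (48.5%) had no peak in either knockout, 102 (4.36%) lacked one in CFL1 knockout alone, 67 (2.86%) lacked one in METTL3 knockout alone, and 1036 (44.2%) had one in both. In the rest 51.4% had none in either and 37.2% had one in both, and over all chromosomes 52.4% had none in either. The knockout lists were set against the same control libraries, so this overlap is a description. Among clusters, the share of control peaks without a CFL1 knockout peak ran from 34.6% at 44.3 to 45.0 Mb to 63.8% at 36.6 to 38.4 Mb. For METTL3 knockout it ran from 25.6% at 44.3 to 45.0 Mb to 63.7% at 34.9 to 35.5 Mb.

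CFL1 knockout peaks without a control peak formed a smaller share of peaks in the clusters than in the rest, in both libraries and again without a test. They numbered 647 of 1785, or 36.2% (34.0 to 38.5%), beside 56.0% in the rest and 53.2% over all chromosomes. By library the share was 37.5% and 34.9% in the clusters for CFL1 knockout 3 and 5, against 58.8% and 52.6% in the rest. METTL3 knockout peaks without a control peak numbered 721 of 1795, or 40.2% (37.9 to 42.5%), beside 46.4% in the rest and 49.3% over all chromosomes. The difference from the rest was -19.7 points for CFL1 knockout peaks and -6.22 points for METTL3 knockout peaks. For METTL3 knockout it was -3.79 points without METTL3 knockout 5, -3.57 points without the 56.5 to 59.1 Mb cluster and -3.41 points after standardisation to bins of −log10 q. Set against the other knockout, 20.6% of CFL1 knockout cluster peaks had no METTL3 knockout peak (39.2% in the rest, 34.9% over all chromosomes). Conversely 24.8% of METTL3 knockout cluster peaks had no CFL1 knockout peak (19% in the rest, 29.6% over all chromosomes).

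Stronger peaks had a counterpart more often than weaker ones. Chromosome 19 peaks of each list were put into 5 equal-size bins of −log10 q. In the weakest bin 76.6% of control cluster peaks lacked a CFL1 knockout peak and 75.6% lacked a METTL3 knockout peak, and in the strongest bin the share was 9.66% for each. In the rest the strongest bin had 13.0% for CFL1 knockout and 14.0% for METTL3 knockout, and the weakest 77.5% and 81.6%. For CFL1 knockout the direction varied between bins. Control cluster peaks lacked a counterpart more often than the rest in the second weakest bin (75.8% against 70.1%) and the middle bin (65.8% against 62.8%). In the second strongest bin they lacked one less often (42.5% against 50.1%). For METTL3 knockout the clusters had the lower share in each bin. Cluster peaks of CFL1 knockout lacked a control peak less often than peaks of the rest in each bin, with 67.1% against 80.5% in the weakest, 16.2% against 46.3% in the second strongest and 6.13% against 18.3% in the strongest. For METTL3 knockout the weakest bin had 74.7% in the clusters against 70.1% in the rest, and the strongest had 4.18% against 10.6%.

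Binned by width or fold enrichment, the comparison of control peaks changed direction along the bins for both knockouts. In the narrowest of 5 bins of width 82.7% of cluster peaks lacked a CFL1 knockout peak, against 74.7% in the rest, and in the widest 13.0% did, against 24.0% in the rest. For METTL3 knockout the narrowest bin had 82.5% in the clusters against 78.7% in the rest, and the widest 11.3% against 25.8%. In the bin of lowest fold enrichment 76.8% of cluster peaks lacked a CFL1 knockout peak, against 55.4% in the rest, and 75.4% lacked a METTL3 knockout peak, against 61.0%. In the bin of highest fold the shares were 19.9% against 28.0% for CFL1 knockout and 19% against 30.2% for METTL3 knockout. Cluster control peaks were thus missing more often than the rest in the bins of narrowest and of lowest-fold peaks and less often in the bins of widest and of highest-fold peaks, without a test, and cluster peaks were on the whole wider and of higher fold. CFL1 knockout peaks without a control peak had a lower share in the clusters in each of the 5 bins of width and of fold, whereas for METTL3 knockout the direction varied between bins.

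**Figure D4:**
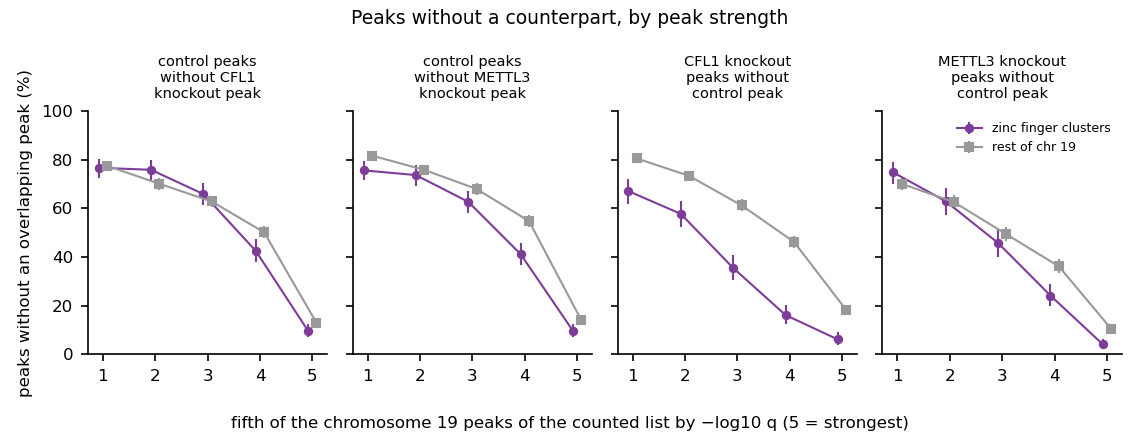
Percentage of peaks without an overlapping peak in the other list (vertical axis) by bin of −log10 q of the counted list (horizontal axis, 5 is the strongest), in zinc finger clusters and in the rest of chromosome 19; bars are exact 95% binomial intervals, for counting error only. The curves lie furthest apart for CFL1 knockout peaks without a control peak, where the strongest bins have 6.13% in the clusters and 18.3% in the rest.

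Joining overlapping peaks of all 6 libraries gave 1983 sites in the clusters (148 per Mb) and 8142 in the rest (191 per Mb). The longest cluster, at 19.8 to 24.3 Mb, had 74.9 sites per Mb, and the others had from 121 to 228. Sites called in all 6 libraries were 330 (16.6%) in the clusters and 936 (11.5%) in the rest. By cluster this share ran from 10.9% at 34.9 to 35.5 Mb to 24.9% at 52.3 to 53.9 Mb. In the clusters from 9.2, 19.8 and 36.6 Mb it was 11.8, 12.2 and 11.2%, near that of the rest. Sites of 1 library only were 822 (41.5%) against 42.4% in the rest. Both control libraries and no knockout library held 342 sites (17.2%), against 14.7% in the rest. All 4 knockout libraries and no control library held 68 (3.43%), against 4.75%. Sites of both CFL1 knockout libraries alone were 35 (1.77%) in the clusters and 467 (5.74%) in the rest, while those of both METTL3 knockout libraries alone were 62 (3.13%) and 138 (1.69%). With all clusters pooled, the order of the knockouts was thus opposite to that in the rest. The 56.5 to 59.1 Mb cluster had the order of the rest, with 12 sites of CFL1 knockout alone and 3 of METTL3 knockout alone. At 9.2 to 9.9 Mb there was 1 of each. Sites at least 2 kb wide made up 6.91% in the clusters (137 sites) and 3.11% in the rest.

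**Figure D5:**
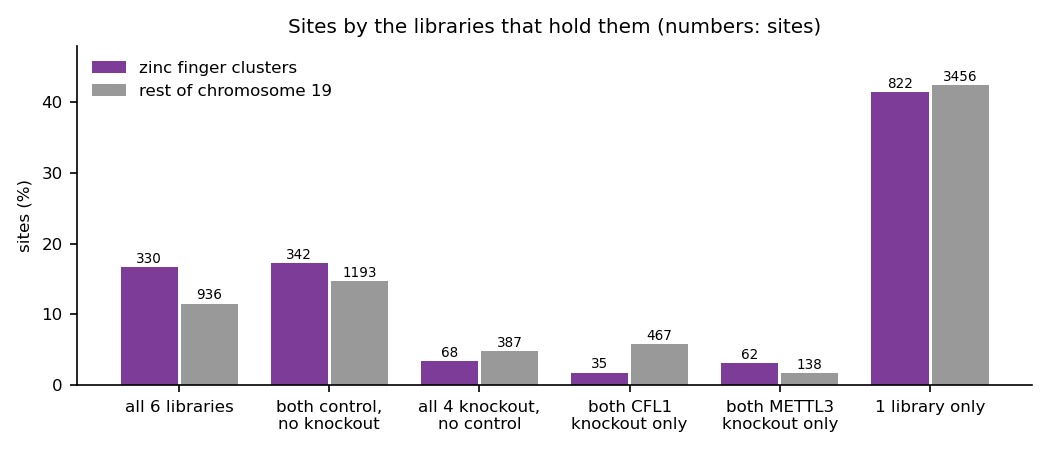
Percentage of sites (vertical axis) by the libraries that hold them, in the zinc finger clusters and in the rest of chromosome 19, with the number of sites above each bar. Sites in both CFL1 knockout libraries only make up 1.77% in the clusters and 5.74% in the rest.

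Single sites show the range of these patterns, with values as −log10 q. The site with the highest control value among those in all 6 libraries was chr19:58805302-58807189, with 196 and 148 in CFL1 knockout, 188 and 246 in METTL3 knockout, and 362 and 523 in control. In the longest cluster, the strongest such site by control value was chr19:23541185-23545691, with 30.5 and 49.3 in CFL1 knockout, 291 and 205 in METTL3 knockout, and 194 and 289 in control. Values of different libraries are not on 1 scale, so their sizes are given as a description.

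Sites of all 4 knockout libraries without a control peak were ranked by their CFL1 knockout value. The strongest was chr19:23505465-23507322, also in the longest cluster, with 375 and 265 in CFL1 knockout and 271 and 239 in METTL3 knockout. The nearest control peak lay 14257 bp away. The second, chr19:56813103-56814385, had 210 and 236 in CFL1 knockout and 46.4 and 31.5 in METTL3 knockout, but a control peak lay 18 bp from it. A site without an overlapping control peak can thus still lie next to one.

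The strongest site of both control libraries without a knockout peak was chr19:23403159-23403994, with 62.1 and 96.5, and the nearest peaks of CFL1 and METTL3 knockout were 440 and 404 bp away. The next, chr19:36707853-36709626, had 72.4 and 86.5, with knockout peaks 2006 and 9860 bp away. Control-only sites were weaker than the strongest shared ones, with a highest value of 96.5 among 342 sites against 523 among the 330 sites of all libraries.

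Sites of control and 1 knockout were rarer still. Both control and both METTL3 knockout libraries, without CFL1 knockout, held 10 sites (0.504%, against 0.332% in the rest), of which the strongest in control was chr19:23969408-23970577, with 24.3 and 13.2 in METTL3 knockout and 46.2 and 100 in control. Both control and both CFL1 knockout libraries, without METTL3 knockout, held 8 (0.403%, against 0.811% in the rest), led by chr19:56657443-56657781, with 28.1 and 46.4 in CFL1 knockout and 31.5 and 47.2 in control. Of sites in both libraries of 1 knockout alone, the strongest were chr19:36642021-36642367, with 51.6 and 41.4 in CFL1 knockout, and chr19:53352379-53352642, with 56.8 and 7.54 in METTL3 knockout.

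The widest sites were runs of several peaks. The widest, chr19:44469832-44480134, spanned 10303 bp and joined 34 peaks of all 6 libraries, with highest values of 105 and 114 in CFL1 knockout, 202 and 120 in METTL3 knockout, and 26.5 and 37.0 in control. The next, chr19:12015358-12024519, spanned 9162 bp and joined 27 peaks.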

How the data were processed

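Antibody-selected and input RNA of PANC-1 were sequenced, and 12 of the 32 labelled samples stand behind the 3 peak lists. The other 20 were not analysed here. The submitters' processing notes name STAR, MACS2, bedtools and hg19, without versions or settings. Per peak the authors deposited an interval, a fold enrichment (a ratio), a −log10 q and the summit's distance from the start. By the peak names, a list is made of 2 libraries whose peaks were called separately. Peaks were assigned to the clusters by start. Within-library differences were tested by exact sign-flip permutation over libraries, or over groups for sharing, and knockout against control by exact permutation of libraries (Python 3.11.15, numpy 2.4.6, pandas 2.3.3, scipy 1.17.1). Overlap meant at least 1 bp. The overlap and permutation functions were tested on simulated data. The members, lists and tests were chosen with earlier results of these data known. Alternatives covered thresholds, merging, membership by summit, overlap, and leaving out each library or cluster. Named sites were, by rule, the strongest of each kind by −log10 q and the widest. The depth of each library is unknown.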

Additional observations from a re-analysis of the deposited data

Results flagged for a closer look

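In 6 of 45 measures of the clusters the knockouts lay on opposite sides of control, each with both libraries apart from both control libraries. The differences were not tested, the measures overlap, and both comparisons share the control libraries. No such count is given for the rest of chromosome 19, so 6 of 45 cannot be called frequent or rare. In the 19.8 to 24.3 Mb cluster, peaks whose −log10 q reached 10 averaged 65 in CFL1 knockout, 88 in METTL3 knockout and 78 in control, so CFL1 minus METTL3 knockout was -23. Those that reached 20 averaged 35, 60 and 50 in the same order, a difference of -25. In the 36.6 to 38.4 Mb cluster, peaks that reached 20 averaged 46.5 in CFL1 knockout, 58.5 in METTL3 knockout and 52.5 in control, a difference of -12. The share of chromosome 19 peaks in the 34.9 to 35.5 Mb cluster was 0.676% in CFL1 knockout, 0.989% in METTL3 knockout and 0.801% in control, a difference of -0.314 points. Over all clusters, the share of chromosome 19 peaks that reached 50 was 19.6% in CFL1 knockout, 29.1% in METTL3 knockout and 26.1% in control, a difference of -9.51 points.

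Peaks at least 1 kb wide in all clusters averaged 167 in CFL1 knockout, 213.5 in METTL3 knockout and 200.5 in control, a CFL1 minus METTL3 knockout difference of -46.5. In the rest of chromosome 19 the order of these counts was opposite, with 466.5 in CFL1 knockout, 333 in METTL3 knockout and 407.5 in control. As a share of cluster peaks, broad peaks were 18.8% in CFL1 knockout, 23.8% in METTL3 knockout and 17.1% in control, and CFL1 knockout overlapped control.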

How the results depend on the processing

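Merging peaks within 100 bp and keeping every line changed nothing by construction, since peaks of a library lay at least 125 bp apart and none repeated an interval. Of 22 alternatives, these included, none changed the direction of the CFL1 knockout share of chromosome 19 (-5.53 to -3.97 points when 1 library was left out). The METTL3 knockout share turned negative without METTL3 knockout 3 or control 1 (-0.766 to 1.31 over left-out libraries), and without the cluster at 44.3 to 45.0 Mb (-0.307) or at 52.3 to 53.9 Mb (-0.129). The log2 density ratio turned positive at a fold of at least 4 (0.26) and without 19.8 to 24.3 Mb (0.17). It was also positive for peaks whose −log10 q reached 50 (0.054). Its unadjusted p (exact sign-flip permutation) was 0.03125, the smallest possible, without 52.3 to 53.9 Mb (-0.27) or 56.5 to 59.1 Mb (-0.29). The difference in median −log10 q had the same unadjusted p without 19.8 to 24.3 Mb (2.09). It reversed without 56.5 to 59.1 Mb (-0.0641) and at 50 or more (-2.62). No p of these alternatives was adjusted for the number of tests. Width and fold differences kept their sign (58.4 to 75.8 bp and 1.2 to 1.44 without 1 library), but 5 libraries cannot give a p under 0.0625.

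Shares without a counterpart fell with stricter thresholds. For peaks whose −log10 q reached 5, 10, 20 and 50, control peaks without a CFL1 knockout peak were 41.1, 29.0, 17.0 and 5.96%, and without a METTL3 knockout peak 39.4, 27.8, 16.7 and 5.70%. CFL1 knockout peaks without a control peak were 28.2, 18.2, 11.0 and 5.97%, and METTL3 knockout peaks 29.8, 21.5, 14.4 and 5.74%. At a fold of at least 4 these 4 shares were 38.8, 36.6, 31.0 and 34.2%, with an overlap of 50% of the shorter peak 56.3, 54.6, 40.7 and 44.2%, and with the summit inside the other peak 58.2, 55.5, 43.8 and 48.2%. Without 1 library they ranged from 52.1 to 57.5, 50.4 to 55.4, 34.9 to 42.7 and 38.9 to 46.6%. Control peaks without a CFL1 knockout peak were 51.7, 50.2, 54.0 and 55.9% without the clusters from 19.8, 36.6, 44.3 and 52.3 Mb, and 54.2% when standardised to bins. Those without a METTL3 knockout peak were 48.6, 53.0 and 53.6% without the clusters from 36.6, 44.3 and 52.3 Mb. METTL3 knockout peaks without a control peak were 42.8% without 56.5 to 59.1 Mb.

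The CFL1 knockout loss in the clusters minus the rest was -4.39, -5.79 and -6.94 points at 5, 10 and 20 or more, -7.84 at a fold of at least 4, -4.87 without 36.6 to 38.4 Mb, -0.560 when standardised, and 0.859, reversed, without 52.3 to 53.9 Mb (-3.99 to -1.62 without 1 library). For METTL3 knockout it was -9.92, -10.3 and -2.15 points at 5, 10 and 50 or more, -13.3 at a fold of at least 4, -10.6, -6.24 and -5.59 without the clusters from 36.6, 44.3 and 52.3 Mb, -9.12 by summit and -6.29 when standardised (-9.64 to -7.74 without 1 library). For CFL1 knockout peaks without a control peak it was -23.1 and -12.6 points at 10 and 50 or more (-21.4 to -17.7 without 1 library). For METTL3 knockout peaks it was -11.0 and -10.8 at 10 and 20 or more, and nearer 0 without 56.5 to 59.1 Mb (-3.57) and when standardised (-3.41), with -8.69 to -3.79 without 1 library. The cause of these shifts was not tested.

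The thresholds of 20 and 50, the counting of equal intervals once, and the differences of these shares from the rest were added after seeing the data. Values without a test were judged against the SD over the 4 pairs of 1 library from each list. This spread replaced, after a first set of verdicts had been seen, the SD over the counted list's own libraries, which leaves out the spread of the other list. Under the first definition 79 of 208 alternatives moved a share or difference beyond the spread, and under the present one 66. For the METTL3 knockout loss minus the rest the numbers were 19 and 10 of 26, with spreads of 0.0221 and 0.890 points. No paired analysis was possible because knockout libraries are numbered 3 and 5 in their peak names, which are not replicate numbers of the labels, and control libraries 1 and 2. The knockouts share numbers with each other, but no test was made between them. Unknown read depth limits every count of peaks.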
